A study of Mus musculus with 48 samples.

Results

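RNA from the hippocampus of male mice infused with angiotensin II was compared with RNA from the hippocampus of mice infused with vehicle. The comparison uses 12 of the 48 sequencing libraries of the study, 6 from angiotensin II mice and 6 from vehicle mice, chosen by their region and treatment. Genes with at least 0.5 FPKM (fragments per kilobase of transcript and 1000000 reads) in 6 or more of the 12 libraries were tested, which left 14368 of 54532 genes. The fit was repeated on 9 libraries, without the 3 that list fewer than 16000 genes above 0. The mice were wild-type C57Bl6 males. Angiotensin II was given at 0.7 mg per kg per day by osmotic minipump for 2 weeks, and the vehicle was 0.9% saline. Neither group received hydralazine, the vasodilator given to other mice of the study. Whether each library came from a different mouse is not stated in the labels, and the p-values therefore reflect only how far these libraries vary, which may be technical.

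Angiotensin II is the effector peptide of the renin-angiotensin system. Angiotensinogen is cut by renin and then by angiotensin-converting enzyme to give it, and through its type 1 receptor it constricts vessels and raises blood pressure. The hippocampus holds the CA pyramidal cells and the dentate granule cells, which serve spatial and episodic memory. Neurons there switch on immediate early genes such as Arc, Fos and Npas4 within minutes of activity, so the levels of these genes follow recent activity and handling as well as any lasting treatment.

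The libraries carried the genes of the labelled region. Wfs1, a CA1 pyramidal cell marker, ranged from 44.5 to 69.3 FPKM over the 12 libraries. C1ql2, a dentate granule cell marker, ranged from 72.4 to 140 FPKM, and Prox1, the transcription factor of those cells, from 6.63 to 12.2 FPKM. All 30 pairs of libraries of the same group differed by more than counting noise, with a chi-square per gene of at least 8.06. In bulk tissue, fewer cells of a type and less RNA per cell cannot be told apart.

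Several libraries stood apart from the rest. Vehicle replicate 3 listed 12322 genes above 0, vehicle replicate 4 listed 15684 and angiotensin II replicate 3 listed 14043, against 21430 to 23044 in the other 9. Of the 14368 genes tested, 20.2% were listed at 0 in vehicle replicate 3, 11.1% in angiotensin II replicate 3 and 5.42% in vehicle replicate 4, and at most 0.327% in any other library. The reads in genes, in units of 1000000, were 12.7 to 21.0, and these 3 libraries had the 3 lowest totals. Vehicle replicate 5 was high in genes of the neighbouring thalamus and habenula. Its mean over the 9 tested members of that list was 4.62 on the log2(FPKM + 0.5) scale, against 0.867 to 1.60 in the other 11 libraries, and Calb2, which encodes the calcium-binding protein calretinin, was at 136 FPKM there and 3.96 to 13.8 FPKM elsewhere. Angiotensin II replicate 4 was high in choroid plexus genes. The transthyretin gene Ttr, the most abundant transcript of that tissue, was at 1979 FPKM in it and at 0 to 158 FPKM in the other 11. Angiotensin II replicate 6 was low in ribosomal protein and respiratory chain genes, and 5.74% of its reads were mitochondrial against 8.26 to 10.5% elsewhere.

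**Figure D1:**
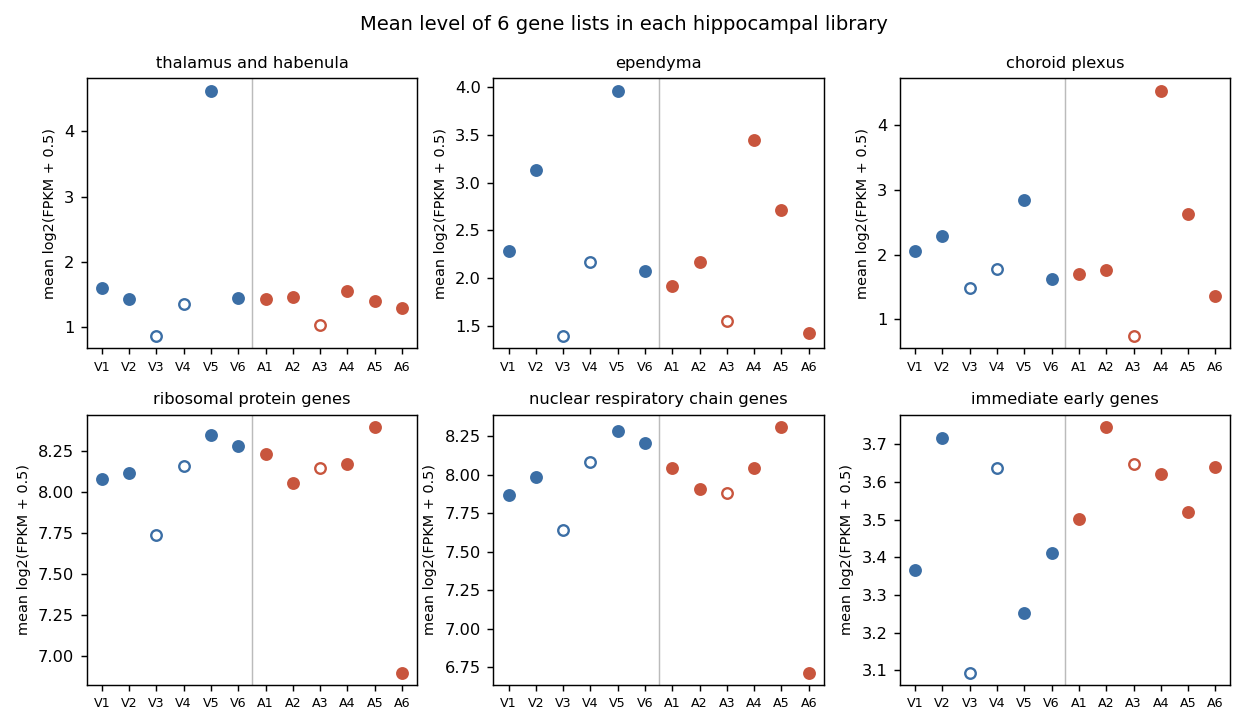
Each panel plots the mean log2(FPKM + 0.5) of the tested members of 1 gene list in each hippocampal library (V, vehicle, blue; A, angiotensin II, red; the number is the replicate; open circles, the 3 libraries with fewer than 16000 genes above 0). The y axes do not start at 0 and differ between panels. Vehicle replicate 5 stands alone for thalamus and habenula genes at 4.62, angiotensin II replicate 4 is highest for choroid plexus genes at 4.53, and angiotensin II replicate 6 is lowest for ribosomal protein genes at 6.90 and nuclear respiratory chain genes at 6.71.

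No hippocampal gene changed with angiotensin II at an adjusted p under 0.05. With all 12 libraries, limma called 0 of 14368 genes (0%), with a lowest adjusted p of 0.942. At an unadjusted p under 0.05 there were 340 genes (2.37%), fewer than the 718 that uniform p-values would give, and 238 of the 340 were higher with angiotensin II. With the 9 libraries limma again called 0 genes (0%), with a lowest adjusted p of 0.899 and 558 genes (3.88%) at an unadjusted p under 0.05. Limma's voom on reads recovered from the FPKM also called 0 genes in both sets, with 188 and 419 genes at an unadjusted p under 0.05. The median half-width of the 95% confidence interval of a gene's log2 fold change was 0.435 over the 12 libraries, a 1.35-fold change, and 0.282 over the 9 libraries, a 1.22-fold change. For the median gene, a change larger than this would have left 0 outside the interval, although one far larger is needed to pass the adjusted threshold.

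Among the genes with the smallest p in the 12 libraries, those higher with angiotensin II included genes of neurons. Grasp (ENSMUSG00000000531, chromosome 15, 101224188 to 101232756, GRCm38) encodes the scaffold protein tamalin, which binds metabotropic glutamate receptors. Its FPKM was 23.1, 28.0 and 36.6 (lowest, median and highest) in vehicle and 35.0, 38.5 and 46.0 with angiotensin II. The groups overlapped only through vehicle replicate 6, which was above angiotensin II replicates 2 and 6. Grasp was 28.5 ± 5.21 FPKM in vehicle and 39.4 ± 4.29 FPKM with angiotensin II (SD, n = 6 each). The log2 fold change of 0.47 ± 0.12 (SE) had the smallest p of the genes named from the 12 libraries, 0.00173, and a limma adjusted p of 0.942. Rbfox3 encodes NeuN, the splicing factor used to mark mature neurons. It was 44.7, 59.0 and 65.5 FPKM in vehicle and 64.5, 70.1 and 77.7 FPKM with angiotensin II, so that only vehicle replicate 4 reached into the angiotensin II range. Its log2 fold change was 0.31 ± 0.09 in the 12 libraries and 0.37 ± 0.10 in the 9. In the 9, every angiotensin II library was above every vehicle library (1.86% of all genes tested had that order). Rbfox3 was itself chosen by p in the 12 libraries, which include these 9, so the order adds no support.

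The higher side held 6 further genes, none of them called. Dpf1, a subunit of the neuronal BAF chromatin remodelling complex, was 4.62, 6.16 and 7.86 FPKM in vehicle and 7.8, 8.22 and 10.9 FPKM with angiotensin II (log2 fold change 0.45 ± 0.14). Rbm3, a cold-inducible RNA-binding protein, had a log2 fold change of 0.41 ± 0.13, and its only low angiotensin II library was replicate 5 at 9.66 FPKM. Btbd9 (0.39 ± 0.11) and Tmed9, a cargo receptor of the early secretory pathway (0.27 ± 0.08), also had overlapping groups. Kdm8, of the JmjC family, and Ccdc9b had the larger values, at 1.08 ± 0.33 and 1.05 ± 0.33. Both were listed at 0 in vehicle replicate 3 and Kdm8 also in vehicle replicate 4, and in the 9 libraries, which also leave out angiotensin II replicate 3, their log2 fold changes were 0.54 ± 0.14 and 0.56 ± 0.19. Ccdc9b was the only one of these 8 genes with every angiotensin II library above every vehicle library, an order that 0.132% of all genes tested showed. Genes chosen by p tend to have such an order, so it adds no support.

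The genes with the smallest p among those lower with angiotensin II included neuropeptides and a haemoglobin. Pura, which encodes the single-strand DNA- and RNA-binding protein Pur-alpha, was the most even of them, at 6.71, 7.38 and 7.89 FPKM in vehicle and 5.02, 6.18 and 6.58 FPKM with angiotensin II. Every angiotensin II library was below every vehicle library, as for 0.0696% of genes tested. Pura too was chosen by p in these libraries, so the order adds no support. The log2 fold change of Pura was -0.26 ± 0.09 in the 12 libraries and -0.24 ± 0.06 in the 9 (limma adjusted p = 0.942 and 0.899). Efhd1, a calcium-binding protein of mitochondria, had a log2 fold change of -0.65 ± 0.23, and angiotensin II replicate 3 was its lowest library at 5.40 FPKM. Phyh, a peroxisomal enzyme of phytanic acid oxidation, had -0.34 ± 0.11, and Gstp2, a glutathione transferase with a near-identical neighbouring copy, -1.32 ± 0.47 from means of 1.85 and 0.272 FPKM.

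Several of the lower genes were high in vehicle replicate 5 or in vehicle replicate 3. Gal, the neuropeptide galanin, was 0.682, 1.64 and 10.6 FPKM in vehicle and 0, 0.314 and 1.52 FPKM with angiotensin II. Its highest values were in vehicle replicate 3 at 10.6 FPKM and vehicle replicate 5 at 4.07 FPKM. Over the 12 libraries Gal had a log2 fold change of -1.59 ± 0.54, with -0.89 ± 0.44 in the 9 and -0.45 ± 0.33 in the 9 without vehicle replicate 5. Cartpt, the precursor of the CART neuropeptides, went from -0.83 ± 0.29 to -0.58 ± 0.34 and -0.34 ± 0.33 over the same sets. Pcbd1, an enzyme of tetrahydrobiopterin recycling, was at 22.1 FPKM in vehicle replicate 5 and 19.5 FPKM in vehicle replicate 3, and its log2 fold changes were -0.87 ± 0.27, -0.56 ± 0.28 and -0.26 ± 0.20.

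**Figure D2:**
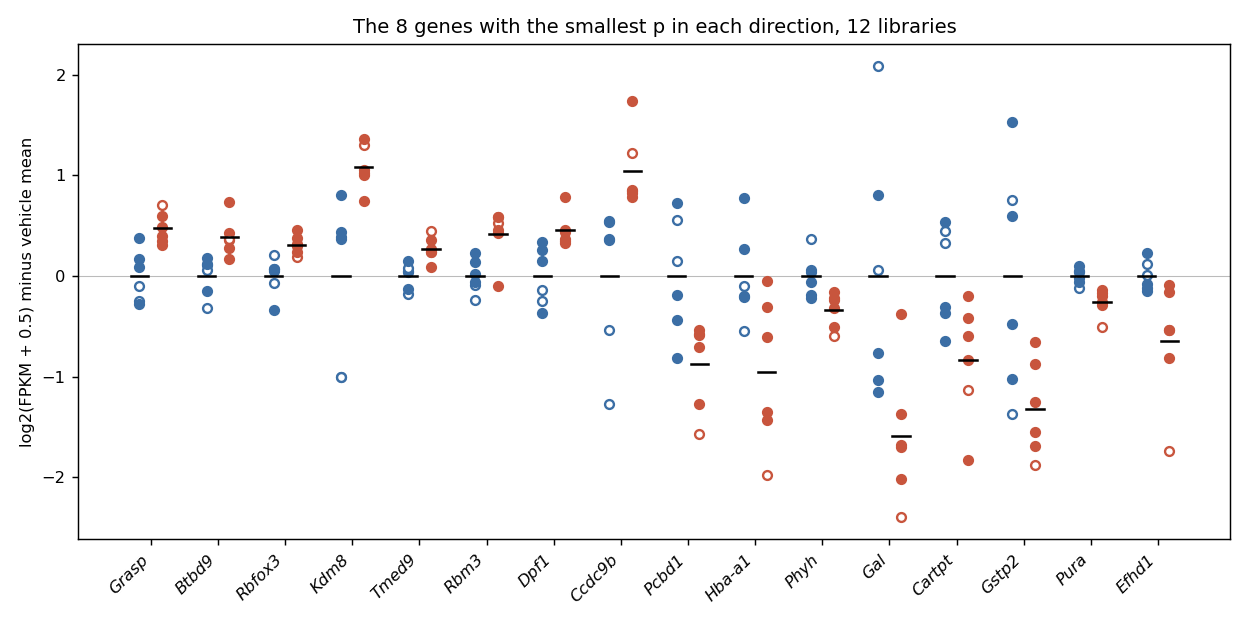
The y axis gives log2(FPKM + 0.5) minus the mean of the 6 vehicle libraries, for the 8 genes with the smallest p in each direction over 12 libraries. Blue points are vehicle and red points angiotensin II libraries, open circles are the 3 libraries with fewer than 16000 genes above 0, and black dashes are group means. Grasp, Rbfox3 and Pura have narrow groups, while Gal, Gstp2 and Hba-a1 spread over more than the distance between their group means.

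In the 9 libraries, other genes had the smallest p, and none passed adjustment. Klhl40, a kelch protein known from muscle, was 1.11 to 1.51 FPKM in the 4 vehicle libraries and 1.73 to 2.14 FPKM in the 5 angiotensin II libraries, a log2 fold change of 0.48 ± 0.10 (limma adjusted p = 0.899). Fance, of the Fanconi anaemia DNA repair complex, followed at 0.33 ± 0.08. The remaining 6 genes on the higher side were Lrfn4, a synaptic adhesion molecule, Ncln, Ogfr, Ypel4, Gpd1, the glycerol-3-phosphate dehydrogenase of the cytosol, and Rxrb, a retinoid X receptor, with log2 fold changes of 0.24 to 0.31. Each of these 8 had every angiotensin II library above every vehicle library, an order that 267 genes (1.86%) showed. These genes, and the lower ones that follow, were chosen by p in these same 9 libraries, so the order adds no support.

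On the lower side of the 9 libraries stood Cox7b2 at -1.02 ± 0.25, Ly6g6d at -0.87 ± 0.22 and Aard at -0.38 ± 0.10. Each of these and of Pura, Zcchc10, Slc46a3, a lysosomal transporter, Tbc1d19 and Vma21, an assembly factor of the vacuolar proton pump, had every angiotensin II library below every vehicle library, as did 64 genes (0.445%). Slc46a3 was 2.92 to 3.40 FPKM in those vehicle libraries and 2.20 to 2.67 FPKM in those angiotensin II libraries. In the 3 libraries left out it was at 0 in vehicle replicate 3, 1.63 FPKM in vehicle replicate 4 and, in the angiotensin II library, 5.32 FPKM, so that its 12-library log2 fold change was 0.47 ± 0.45. Zcchc10 and Lrfn4 also had opposite signs in the 12 libraries, at 0.03 ± 0.22 and -0.08 ± 0.27.

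Genes of the renin-angiotensin system did not pass the test. Of 15 genes on the list, 6 were tested, of which 4 were higher and 2 lower in the 12 libraries, with a median log2 fold change of 0.021 against 0.035 over all genes tested. Agt, which encodes angiotensinogen and is made by astrocytes in the brain, was 9.8, 14.9 and 58.0 FPKM in vehicle and 7.88, 11.2 and 15.3 FPKM with angiotensin II. The highest vehicle value was replicate 5, the library with thalamic genes. The log2 fold change of Agt was -0.72 ± 0.35 in the 12 libraries (interval -1.48 to 0.05), -0.58 ± 0.45 in the 9 and -0.02 ± 0.18 in the 9 without vehicle replicate 5. Ace, which encodes angiotensin-converting enzyme, was at 0.07 ± 0.36 in the 9 libraries, and Agtrap, which encodes a protein that binds the type 1 receptor, at -0.07 ± 0.14. Agtr1a, the type 1 receptor itself, was below the filter, at 0 to 0.157 FPKM in vehicle and 0 to 0.318 FPKM with angiotensin II.

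Immediate early genes leaned higher with angiotensin II in the hippocampus, without any call, while in the hemisphere of mice given the same treatments they leaned lower. In the hippocampus 18 of 26 were higher in the 12 libraries, with a median log2 fold change of 0.17, and 20 of 26 in the 9, with a median of 0.12. Over all genes tested the medians were 0.035 and 0.015, and 56.8% and 54.5% of genes were higher. At an unadjusted p under 0.05 there was 1 of 26 in the 12 libraries (Jun) and 4 of 26 in the 9, all higher, against 2.37% and 3.88% of all genes tested. These 4 were Arc, Jun, Npas4 and Ier5, the last 2 of them named here after their values were seen. In the 9 without vehicle replicate 5, 21 of 26 were higher, with a median of 0.089 against 0.023 over all genes. The unadjusted p was then 0.114 for Arc and 0.135 for Jun (limma). In the hemisphere 23 of the 26 were lower, with a median of -0.51.

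Arc (ENSMUSG00000022602, chromosome 15, 74669083 to 74672570, minus strand, GRCm38) encodes the activity-regulated cytoskeletal protein that removes AMPA receptors from synapses. In the hippocampus it was 23.7, 46.9 and 80.5 FPKM in vehicle and 50.0, 65.9 and 80.9 FPKM with angiotensin II. Vehicle replicates 1, 5 and 6 were below every angiotensin II library, and the other 3 vehicle libraries lay among the angiotensin II values. The log2 fold change was 0.50 ± 0.27 (interval -0.09 to 1.09, limma adjusted p = 0.942) in the 12 libraries and 0.69 ± 0.28 in the 9. In the hemisphere Arc was 90.7 ± 29.6 FPKM in vehicle and 24.3 ± 4.99 FPKM with angiotensin II (SD, n = 6 each). There it fell by 1.82 ± 0.23 on the log2 scale (limma adjusted p = 0.0209). The hemisphere groups did not overlap, with 40.1 FPKM the lowest vehicle and 29.8 FPKM the highest angiotensin II value. Mitochondrial reads in the hemisphere were 2.77 to 6.66% with angiotensin II and 5.89 to 7.22% in vehicle. Lower there with angiotensin II were also 14 of 14 heat shock and 15 of 16 clock genes, against 7147 of 14368 genes. Their bearing on Arc was not tested.

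The difference between the regions was tested with an interaction term over the 24 libraries. Arc was the only gene called, 1 of 16647 genes (0.00601%). Its difference was 2.33 ± 0.38 on the log2 scale (interval 1.55 to 3.10, limma adjusted p = 0.041). The call sat close to the threshold: with each of the 24 libraries left out in turn, Arc passed in 4 fits and missed in 20, with differences of 2.14 to 2.54. The 4 were the fits without hemisphere vehicle replicate 3, hippocampal vehicle replicate 2 or 3, or hippocampal angiotensin II replicate 5. Without angiotensin II replicate 6 in both regions the difference was 2.27 with an adjusted p of 0.319, and without the sparse libraries it was 2.51 with an adjusted p of 0.0369. The labels do not say whether the same replicate number in both regions marks 1 mouse, and the test treats the 24 libraries as independent. With a block for each treatment and replicate number, which pairs hippocampus with hemisphere, the difference was 2.33 ± 0.43 and the adjusted p was 0.784.

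**Figure D3:**
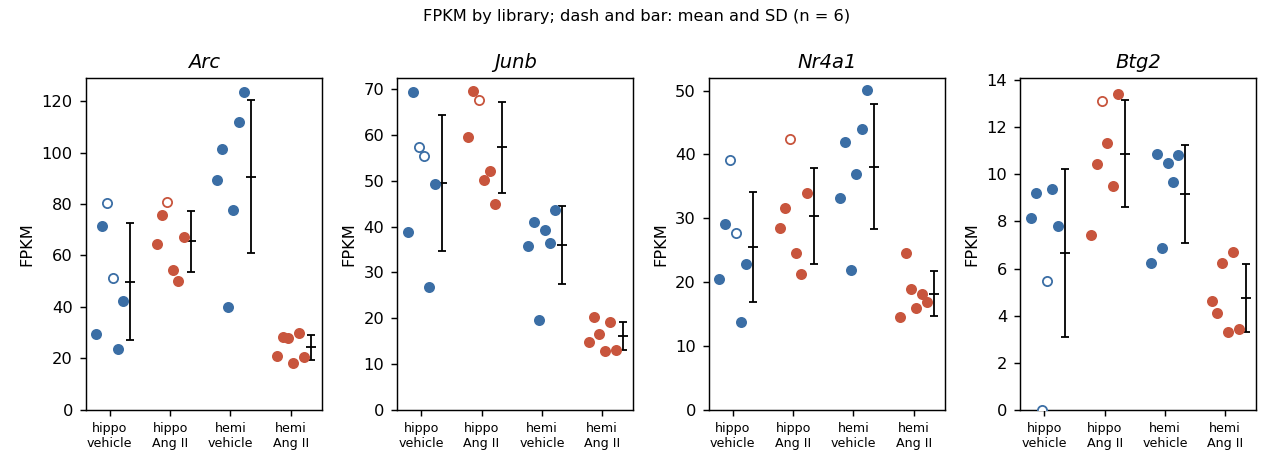
FPKM of 4 immediate early genes in each library of the hippocampus (hippo) and the hemisphere (hemi), vehicle in blue and angiotensin II (Ang II) in red. Points are libraries, open circles the hippocampal libraries with fewer than 16000 genes above 0, and the dash and bar beside each group its mean and SD (n = 6). Arc falls from 90.7 to 24.3 FPKM in the hemisphere with no overlap, while its hippocampal groups overlap.

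Other genes pointed the same way in the interaction without passing it over the 24 libraries. Junb, an AP-1 transcription factor, was 26.9, 52.3 and 69.4 FPKM in vehicle and 44.9, 55.9 and 69.5 FPKM with angiotensin II in the hippocampus, a log2 fold change of 0.25 ± 0.20. In the hemisphere it was -1.11 ± 0.18, and the difference was 1.36 ± 0.28 (limma adjusted p = 0.556). Without hemisphere vehicle replicate 3 Junb was called beside Arc, at 1.53 with an adjusted p of 0.0295. Nr4a1, an orphan nuclear receptor, had 0.28 ± 0.23 in the hippocampus and -1.02 ± 0.18 in the hemisphere. Jun had 0.27 ± 0.11 and Egr1 0.29 ± 0.14 in the hippocampus, and -0.23 and -0.59 in the hemisphere. Npas4, a neuron-specific activity-dependent factor, was at 1.0 ± 0.51 in the 12 libraries and 0.87 ± 0.25 in the 9, and at -0.64 in the hemisphere. Btg2 had 1.09 ± 0.62, with vehicle replicate 3 at 0 and the other vehicle libraries at 5.45 to 9.36 FPKM, and 0.24 ± 0.15 in the 9 libraries. Fos and Npas4 were likewise listed at 0 in vehicle replicate 3.

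**Figure D4:**
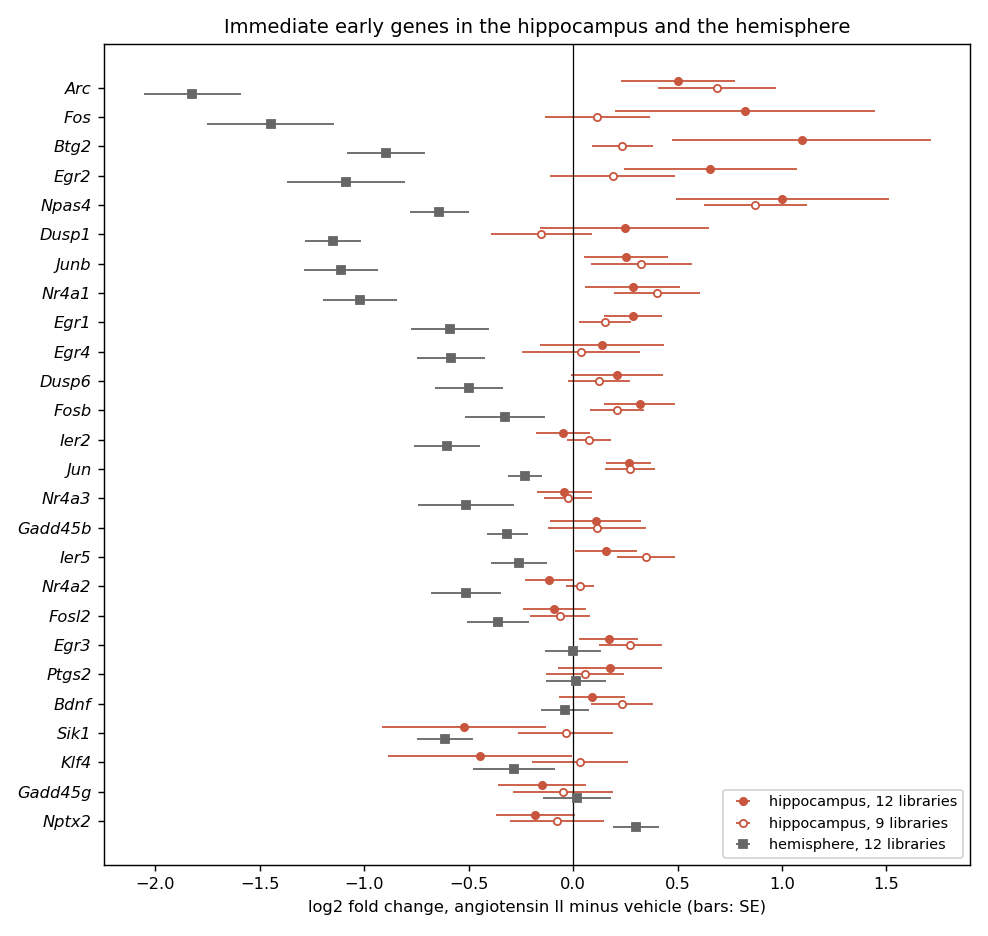
Log2 fold changes (angiotensin II minus vehicle) of the 26 immediate early genes with their standard errors, in the hippocampus over 12 libraries (filled circles) and 9 libraries (open circles) and in the hemisphere (grey squares), ordered by the difference between regions. Arc is at the top, at 0.50 in the hippocampus and -1.82 in the hemisphere, and the hippocampal values of most genes lie within 2 standard errors of 0.

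A list of 12 genes, taken because they had been called in the hemisphere in earlier work on these data, leaned higher in the hippocampus, with 11 of 12 above 0 and a median of 0.33 in the 12 libraries, and 10 of 12 and 0.18 in the 9. Its median in the hemisphere was -0.45, with 9 lower and 3 higher. Hemisphere values of these same data chose the list, so that median is no separate evidence. The fit of the 2 hemisphere groups used here called 2 of 16647 genes, both lower. In vehicle replicate 3 the list mean was 1.66, against 2.78 to 3.11 in the other vehicle libraries, and Btg2, Otud1, Msantd1 and Eln were its genes listed at 0 there. Otud1, a deubiquitinase, was at 0.73 ± 0.53 in the 12 libraries and 0.18 ± 0.07 in the 9. Kdm6b, a histone demethylase, went from 0.54 ± 0.38 to 0.11 ± 0.10. Dusp1, a MAP kinase phosphatase, went from 0.25 ± 0.41 to -0.15 ± 0.24, Msantd1 from 0.25 ± 0.33 to -0.02 ± 0.20, and Adrb1, which encodes an adrenergic receptor, from -0.03 ± 0.12 to 0.10 ± 0.11. Eln, which encodes elastin and was higher in the hemisphere at 0.64, had 0.37 ± 0.26 and 0.20 ± 0.13 in the hippocampus. Podxl had 0.18 ± 0.14 and the noncoding RNA Neat1 0.16 ± 0.19 in the 9 libraries.

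On the other side of the interaction were genes below 0 in the hippocampus and above 0 in the hemisphere. Gal and Cartpt had differences of -1.85 ± 0.57 and -1.26 ± 0.37. Fabp7, the brain lipid-binding protein of astrocytes and radial glia, was 33.9, 43.7 and 77.4 FPKM in vehicle and 18.4, 32.6 and 40.2 FPKM with angiotensin II, with its highest value in vehicle replicate 5 and its lowest in angiotensin II replicate 6. The hippocampal log2 fold change of Fabp7 was -0.60 ± 0.22 in the 12 libraries and -0.35 ± 0.25 in the 9 without vehicle replicate 5. Higd1b, a pericyte gene, had -0.45 ± 0.20 and Itgb1bp1, an integrin-binding protein, -0.34 ± 0.15. On the higher side, after Arc, Junb and Nr4a1, were the death receptor gene Tnfrsf25 (0.61 ± 0.23 in the hippocampus, -0.65 ± 0.18 in the hemisphere) and Irf2bpl (0.35 ± 0.14). Apart from Arc, all of these had an adjusted p of at least 0.556 for the difference (limma). Across the 14368 genes, the log2 fold changes of the hippocampus and the hemisphere had a Pearson correlation of -0.023, a description over genes that are not independent.

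Glial, immune and vascular genes held no call, and their medians differed between lists. In the 9 libraries the lists of microglia, astrocytes and reactive astrocytes lay near the median of all genes, 0.015, while others were lower. The medians were -0.175 for 9 endothelial activation genes (8 lower), -0.108 for 14 mural cell genes (10 lower), -0.102 for 12 microglial activation genes (8 lower), -0.154 for 4 border macrophage genes and -0.152 for 3 genes of lymphocytes, monocytes and neutrophils. In the 12 libraries the same lists had 0.071, -0.134, 0.029, -0.031 and -0.055. In the 9 without vehicle replicate 5 they had -0.059, -0.043, -0.032, 0.016 and 0.112. Without angiotensin II replicate 6 instead they had -0.051, -0.022, -0.002, -0.059 and -0.101. Each of these lower medians thus rose when either library was left out. Gfap, the intermediate filament of astrocytes that rises in gliosis, was 96.2, 106 and 121 FPKM in vehicle and 103, 111 and 123 FPKM with angiotensin II, ranges that overlap almost fully. The log2 fold change of Gfap, 0.07 ± 0.08, had an interval of -0.10 to 0.25. The 10 tested reactive astrocyte genes had a median of -0.010 in the 12 libraries and 0.050 in the 9, the 15 astrocyte markers 0.035 and 0, and the 18 microglial markers 0.040 and -0.019. Aif1, the microglial gene for Iba1, was 4.97 to 8.66 FPKM in 10 libraries, 3.32 FPKM in angiotensin II replicate 6 and listed at 0 in vehicle replicate 3. Aif1 had a log2 fold change of 0.39 ± 0.61 in the 12 libraries and -0.23 ± 0.22 in the 9. Cd68, a phagocyte lysosomal protein, had -0.38 ± 0.22 and -0.09 ± 0.14, with vehicle replicate 3 highest at 20.5 FPKM.

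Interferon genes were above 0 in the 12 libraries and near 0 in the 9. Of 14 tested, 11 were higher in the 12 libraries, against 56.8% of all genes, with a median of 0.33. In the 9 libraries 8 of the 14 were higher, against 54.5%, with a median of 0.021. Their mean in vehicle replicate 3 was 0.566 and in vehicle replicate 4 1.13, against 1.56 to 2.07 in the other 10 libraries, and 9 of the 14 were listed at 0 in at least 1 library. Irf9, part of the interferon-activated transcription factor, had 0.59 ± 0.31 and 0.21 ± 0.14, and the guanylate-binding protein gene Gbp2 0.64 ± 0.36 and 0.06 ± 0.14. The 15 antigen presentation genes had medians of 0.082 and -0.010, and H2-Ab1, of MHC class II, was at 0 to 2.58 FPKM in vehicle and 0 to 1.78 FPKM with angiotensin II. Of the inflammatory genes followed in particular, Cybb, the NADPH oxidase subunit of phagocytes, was at most 0.0922 FPKM, Il1b at most 0.301 FPKM and Ccl2 at most 0.327 FPKM in any of the 12 libraries, below the filter.

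Among the 24 endothelial and blood-brain barrier genes, 15 were higher in the 12 libraries and 16 in the 9, with medians of 0.039 and 0.054. Over all genes tested 56.8% and 54.5% were higher, so these counts were near the share of all genes. Mfsd2a, the lipid transporter of the barrier, was the 1 member with an unadjusted p under 0.05 in each set. It was 9.10, 10.2 and 13.8 FPKM in vehicle and 7.21, 9.09 and 9.58 FPKM with angiotensin II, so that vehicle replicates 4 and 6 lay within the angiotensin II range. Mfsd2a had log2 fold changes of -0.25 ± 0.11 and -0.23 ± 0.09 (limma adjusted p = 0.942 and 0.899). Cldn5, the main claudin of the barrier, was 32.9 to 68.7 FPKM in vehicle and 32.4 to 63.9 FPKM with angiotensin II, and Vcam1, a leukocyte adhesion molecule, had -0.01 ± 0.12 in the 9 libraries.

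Genes of hippocampal neurons and excitatory synapses leaned higher with angiotensin II. All 12 dentate granule cell genes were higher in the 9 libraries, with a median of 0.15, as were 8 of 9 CA1 genes, with a median of 0.23, and 17 of 21 excitatory synapse genes, with a median of 0.17. In the 12 libraries the counts were 8 of 12, 8 of 9 and 15 of 21, with medians of 0.080, 0.10 and 0.105. None was called. Over all genes tested 54.5% were higher in the 9 libraries and 56.8% in the 12. Camk2b, the beta subunit of the calcium/calmodulin kinase of synapses, was 102, 137 and 147 FPKM in vehicle and 145, 151 and 222 FPKM with angiotensin II. Its lowest value was in vehicle replicate 5 and its highest in angiotensin II replicate 6. Camk2b had a log2 fold change of 0.32 ± 0.12 in the 12 libraries and 0.38 ± 0.15 in the 9. Wfs1 had 0.18 ± 0.11 and 0.28 ± 0.09, the AMPA receptor gene Gria1 0.16 ± 0.09 and 0.15 ± 0.11, Lct, a granule cell marker, 0.25 ± 0.12 and 0.26 ± 0.10, and Mpped1, a CA1 marker, 0.24 ± 0.15 and 0.38 ± 0.17. The 11 CA2 and CA3 genes leaned the other way, with 5 higher in the 12 libraries and 2 in the 9, and medians of -0.12 and -0.16.

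These neuronal lists had their extremes in single libraries. Vehicle replicate 5 had the lowest mean of the vehicle libraries for dentate genes (2.64, against 2.70 to 3.06), CA1 genes (3.38, against 3.65 to 3.84) and synapse genes (5.18, against 5.47 to 5.74). In the 9 libraries without vehicle replicate 5, 8 of 12 dentate, 6 of 9 CA1 and 17 of 21 synapse genes were higher, with medians of 0.036, 0.132 and 0.068. Angiotensin II replicate 6 had the highest mean of its group for all 3 lists, at 3.14, 3.98 and 5.81. In 6 libraries, 3 a group, without the sparse libraries and without vehicle replicate 5 and angiotensin II replicates 4 and 6, 8 of 12 dentate, 5 of 9 CA1 and 11 of 21 synapse genes were higher, with medians of 0.040, 0.031 and 0.031 against 0.012 over all genes. The lower lean of the CA2 and CA3 genes was smaller without vehicle replicate 5 and absent in the 6 libraries. Without vehicle replicate 5, 3 of 11 were higher in the 9 libraries, with a median of -0.059. In the 6 libraries 6 of 11 were higher, with a median of 0.005. Their list mean was highest in vehicle replicate 5 (4.33) and lowest in vehicle replicate 3 (2.78). The set of 6 libraries was chosen after the data were seen.

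Myelin genes leaned lower. Of 15, 14 were lower in each set, with medians of -0.17 in the 12 libraries and -0.21 in the 9, and 13 were lower in the 6 libraries, with a median of -0.086, and in the 9 without vehicle replicate 5, with a median of -0.10. Mbp, a main protein of myelin, was 358, 439 and 529 FPKM in vehicle and 342, 398 and 480 FPKM with angiotensin II, ranges that mostly overlap, a log2 fold change of -0.10 ± 0.12. Ugt8a, which makes the galactolipids of myelin, was 9.78 to 17 FPKM in vehicle and 7.66 to 12.4 FPKM with angiotensin II (log2 fold change -0.35 ± 0.14). Opalin had -0.26 ± 0.14. Vehicle replicate 5 had the highest mean over the myelin list at 6.17, against 5.36 to 5.91 in the other 11 libraries. Whether its thalamic tissue sets the myelin values was not tested.

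Blood genes leaned lower in each set of libraries, with no call. The adult globin genes Hba-a1, Hba-a2, Hbb-bs and Hbb-bt come from red cells left in the tissue. Hba-a1 was 50.4, 66.4 and 126 FPKM in vehicle and 18.4, 38.3 and 70.9 FPKM with angiotensin II, and the highest angiotensin II library, replicate 5, was above 4 of the 6 vehicle libraries. Hba-a1 had a log2 fold change of -0.95 ± 0.32 in the 12 libraries, -0.91 ± 0.32 in the 9 and -0.71 ± 0.33 in the 9 without vehicle replicate 5. The median of the 5 tested blood genes was -0.57, -0.78 and -0.57 in these sets and -0.27 in the 6 libraries, with all 5 lower in each set but the 12 libraries, where 4 were. Vehicle replicate 3 had the lowest mean of the list, 1.76, against 2.15 to 4.66 in the other 11 libraries. In the 9 libraries 4 of the 5 had an unadjusted p under 0.05, against 3.88% of all genes tested. The globin genes come from the same red cells, so their values are not independent. Without vehicle replicate 5 the unadjusted p of Hba-a1 was 0.0618 (limma). The alpha- and beta-globin genes are near-identical pairs, so reads may be split between copies.

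Thalamic and ependymal genes had negative medians, and both lists were highest in vehicle replicate 5. The 9 tested thalamus and habenula genes had a median of -0.55 in the 12 libraries and -0.78 in the 9, and -0.055 in the 9 without that library. Slc17a6, the vesicular glutamate transporter of thalamic neurons, was 21.3 FPKM in it and 0.439 to 3.55 FPKM in the other 11. The 9 ependymal genes, of the ciliated ventricle lining, had medians of -0.26 and -0.47, and -0.18 in the 9 without vehicle replicate 5, with the highest means in vehicle replicate 5 (3.96) and angiotensin II replicate 4 (3.45). Ccdc153 was 22.6 FPKM in the first and 13.4 FPKM in the second, Dynlrb2 22.5 and 12.8 FPKM, against 1.83 to 12.5 FPKM for both in the other 10. Choroid plexus genes turned sign with 1 library: 6 of 6 were higher in the 9 libraries with a median of 0.14, and 1 of 6 without angiotensin II replicate 4, with a median of -0.21. Folr1, the folate receptor of that tissue, was at 10.5 FPKM in this library and 0 to 1.74 FPKM elsewhere. Kl, which encodes Klotho, was highest there at 3.85 FPKM.

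Ribosomal protein and respiratory chain genes had negative medians, and both lists were lowest in angiotensin II replicate 6. Of 35 ribosomal protein genes, 32 were lower in the 12 libraries and 35 in the 9, with medians of -0.14 and -0.27. Without angiotensin II replicate 6, 17 of 35 were lower in the 9 libraries, and the median was 0.001. Rpl26 was 321 to 402 FPKM in vehicle, 291 to 370 FPKM in 5 angiotensin II libraries and 124 FPKM in replicate 6. For the 25 nuclear genes of the respiratory chain the medians were -0.22, -0.29 and -0.028, and Uqcrq, of complex III, was 62.1 FPKM in replicate 6 and 137 to 179 FPKM in the other 11. The mitochondrially encoded genes had medians of -0.15 and -0.20, with a mean of 9.34 in replicate 6 against 10.1 to 10.3 in the other 5. RNA quality values were not analysed here, and their part in this was not tested.

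**Figure D5:**
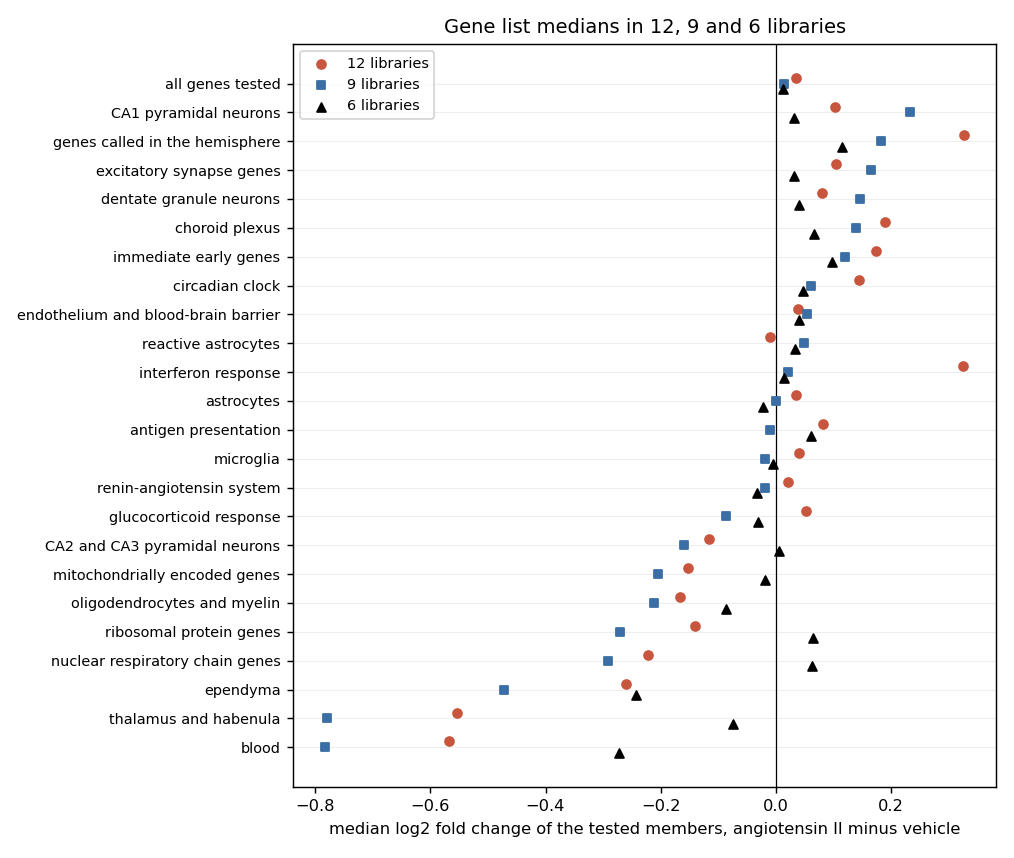
Median log2 fold change (angiotensin II minus vehicle) of the tested members of 23 gene lists and of all genes tested, in 12 libraries (red circles), in 9 (blue squares) and in 6 (black triangles), ordered by the 9-library value. Thalamus and habenula genes go from -0.78 in 9 libraries to -0.074 in 6, ribosomal protein genes from -0.27 to 0.064, and the 6-library medians of most lists lie close to 0.

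Clock and glucocorticoid genes, which vary with the hour and stress of tissue collection, held no call. Of 16 clock genes 12 were higher in the 12 libraries, against 56.8% of all genes, with a median of 0.15. In the 9 libraries 9 of 16 were higher, against 54.5%, with a median of 0.062. Cry2, a repressor of the clock, was 14.5 to 16.2 FPKM in vehicle and 15.2 to 20.8 FPKM with angiotensin II (0.19 ± 0.08). Of 14 glucocorticoid-response genes, 8 were higher with a median of 0.053, and 5 in the 9 libraries with a median of -0.086. Ddit4, an mTOR inhibitor induced by stress, was 31.2, 35.6 and 48.1 FPKM in vehicle and 40.0, 44.9 and 56.1 FPKM with angiotensin II, a log2 fold change of 0.32 ± 0.12. The mineralocorticoid receptor gene Nr3c2 had 0.19 ± 0.10 and 0.23 ± 0.10. Over all 44 lists, 9 of 551 distinct tested members had an unadjusted p under 0.05 in the 12 libraries and 17 in the 9. Over all 14368 genes tested the counts were 340 (2.37%) and 558 (3.88%), so the listed genes held no excess. The sign of the median differed between the 2 sets for 15 lists.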

How the data were processed

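Hippocampal RNA was extracted with a column kit and per the labels' protocols a sequencing company made the libraries. The authors deposited FPKM and lengths of 54532 genes for every library in 1 file. The submitters' processing notes name GRCm38, mm10 and DESeq 1.10.1. The sources used here do not give the aligner, counter or strand setting, so overlapping genes and near-identical copies are uncertain. FPKM times gene length came out as whole multiples of 1 read in 100% of values (within 0.1 read). From this the reads in genes were obtained, and 1 read in a 1 kb gene equals 0.0485 to 0.0802 FPKM in these libraries.

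Values were analysed as log2(FPKM + 0.5), which understates the change of low genes, with limma 3.58.1 in R 4.3.3 (mean-variance trend, robust prior, two-sided, Benjamini-Hochberg adjustment over all genes tested, threshold 0.05), with the 2 groups only, and with 4 groups for the difference between regions. Errors of log2 fold changes are SE. A median is over a list's tested members. The fit was also run on simulated reads, drawn with the same spread in every library for a given gene. No sparse or outlying libraries were simulated, so that run does not bear on those found here. Tables and figures used Python 3.11.15, pandas 2.3.3 and matplotlib 3.10.9.

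The genes and the 44 lists (669 genes) were chosen with earlier results of these data known, so no list was tested. The rule for named genes took protein-coding genes whose mean reached 1 FPKM in either group and whose symbol is no clone name: the 8 smallest p in each direction in the 12 and in the 9 libraries, where fewer than 5 were called, 2 members of each list by p, of which the text gives those of the lists it describes, a set followed in particular, and the 5 smallest p in each direction for the difference between regions. C1ql2, Prox1, Ttr, Npas4, Ier5, Fos and the globin genes other than Hba-a1 were added after their values were seen. Alternatives were pseudocounts, filters, scalings, limma with neither trend nor robust prior, library weights, a replicate block, all 24 hippocampal libraries and each library left out; voom, removal of a gene-length trend, the 6-library fit and leave-one-out for the region difference were added after the data were seen.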

Additional observations from a re-analysis of the deposited data

Results flagged for a closer look

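Of 214 groups of 6 libraries examined (3 library measures, 23 list means and 81 genes in 2 groups), 41 held a library whose gap to its nearest neighbour was large for the range of its group. Chance gives about 1 in 20 groups for independent, normally distributed values. FPKM need not be normal, the groups share the same 12 libraries, and many of the genes were chosen by p. That rate is therefore only a rough guide. None fell on vehicle replicates 2 and 6 or angiotensin II replicate 2, and most fell on the libraries named above as standing apart.

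Angiotensin II replicate 3 was lowest in genes above 0 (14043) and in reads in genes (14.4 in units of 1000000), lowest for Lrfn4 (4.60 FPKM) and Aard (0 FPKM) and highest for Zcchc10 (18.6 FPKM), Slc46a3 (5.32 FPKM), Vma21 (10.3 FPKM) and Gbp2 (3.83 FPKM). Vehicle replicate 3 was lowest in the list means of microglial (2.58), blood (1.76), clock (2.52) and hemisphere-called genes (1.66), lowest for Aif1 and Otud1 (both 0 FPKM) and highest for Gal (10.6 FPKM) and Aard (8.09 FPKM). Vehicle replicate 4 was highest for Lrfn4 (20.3 FPKM) and lowest for Vcam1 (1.25 FPKM).

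Vehicle replicate 5 was highest in the list means of thalamus and habenula (4.62) and astrocytes (5.37), highest for Agt (58.0 FPKM), Calb2 (136 FPKM), Slc17a6 (21.3 FPKM) and Fabp7 (77.4 FPKM) and lowest for Gria1 (115 FPKM). Angiotensin II replicate 4 was highest in the renin-angiotensin list mean (3.41), Folr1 (10.5 FPKM) and H2-Ab1 (1.78 FPKM).

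Angiotensin II replicate 6 was lowest in its mitochondrial share of reads (5.74%), in the list means of mitochondrially encoded (9.34), ribosomal protein (6.90) and nuclear respiratory chain genes (6.71), and for Rpl26 (124 FPKM) and Uqcrq (62.1 FPKM). It was highest for Dpf1 (10.9 FPKM), Ccdc9b (3.53 FPKM), Mpped1 (46.7 FPKM) and Camk2b (222 FPKM). Single flags fell on vehicle replicate 1 (mitochondrially encoded genes, 10.3), angiotensin II replicate 1 (Gal, 1.52 FPKM) and angiotensin II replicate 5 (Rbm3, 9.66 FPKM).

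The angiotensin II effect on Arc differed between hippocampus and hemisphere by 2.33 on the log2 scale in the interaction test.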

How the results depend on the processing

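For the hippocampal comparison, 0 genes were called by limma in the 12 libraries under 15 alternatives and 12 fits with 1 library left out, and in the 9 libraries under 10 alternatives and 9 such fits. The genes at an unadjusted p under 0.05 ranged from 175 to 954 and from 311 to 948, and the lowest adjusted p was 0.147, with library weights. The count for the difference between regions was 1 with pseudocount 1, median-of-ratios scaling, library weights and without the sparse libraries, 0 without angiotensin II replicate 6 in both regions, and 0 to 2 with each library left out. With a block for each treatment and replicate number, which pairs the regions, it was 0 for the region difference. With the number alone as the block, across treatments, it was 0 in both hippocampal fits. Replicate numbers were not treated as pairs: same-numbered hippocampal libraries of the 2 groups had correlations of -0.195 to 0.272, and 2 of 6 correlated best with their own number. Across regions the correlations of same-numbered libraries were -0.213 to 0.043, and 0 of 12 correlated best with their own number.

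Of the 81 genes, 65 kept their sign in every alternative and 16 changed it in at least 1, and none was called. Without the sparse libraries the log2 fold changes with another sign were Lrfn4 0.26, Zcchc10 -0.25, Slc46a3 -0.30, Agtrap -0.069, Vcam1 -0.006, Aif1 -0.23, Dusp1 -0.15, Msantd1 -0.015 and Adrb1 0.098. With library weights they were Lrfn4 0.22, Zcchc10 -0.21, Slc46a3 -0.26, Aif1 -0.048, Cldn5 0.13, Dusp1 -0.13, Msantd1 -0.003 and Adrb1 0.067, and with voom Zcchc10 -0.088 and Adrb1 0.004. In the 6 libraries they were Lrfn4 0.25, Zcchc10 -0.24, Slc46a3 -0.35, Agt 0.001, Cd68 0.052, Vcam1 -0.067, Folr1 -0.45, Ace -0.10, Aif1 -0.036, Cldn5 0.105, Dusp1 -0.24, Msantd1 -0.016, Adrb1 0.087, Irf2bpl -0.023 and Itgb1bp1 0.026, with fewer samples. With 1 library left out the ranges were Lrfn4 -0.146 to 0.185, Zcchc10 -0.179 to 0.087, Agtrap -0.078 to 0.470, Folr1 -0.033 to 0.747, Ace -0.045 to 0.589, Aif1 -0.270 to 0.552, Dusp1 -0.145 to 0.425, Msantd1 -0.039 to 0.387 and Adrb1 -0.087 to 0.045. The cause was not tested. Removing each library's trend on gene length moved the share of genes above 0 in the 12 libraries from 56.8% to 48.8%, and median-of-ratios scaling moved it in the 9 from 54.5% to 46.8%. Low genes are imprecise where 1 read is worth most, in vehicle replicate 3.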
